A study of Arabidopsis thaliana with 17 samples.

Results

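Plants that carried NRPD1 without its YPMF residues were compared with plants that lacked the CLSY proteins, over all 12939 clusters of 24 nt siRNAs in the deposited table. The comparison rests on 4 of the 17 samples of the series, 2 biological replicates of each genotype, all from flowers of Arabidopsis thaliana. The first genotype, NRPD1-3xF CYC-AAAA, is the nrpd1-3 mutant with a FLAG-tagged NRPD1 transgene under the NRPD1 promoter, in which alanines replace the 4 residues of YPMF. It is the T2 generation of a transformation, and the labels do not say which independent line or lines were sequenced. The second, clsy quad, joins the T-DNA alleles clsy1-7, clsy2-1, clsy3-1 and clsy4-1 and keeps its own NRPD1. The 2 genotypes therefore differ in NRPD1 as well as in CLSY, and only CYC-AAAA carries nrpd1-3. For orientation, values are also given for nrpd1-3 without a transgene, for nrpd1-3 with the intact transgene (NRPD1-3xF WT) or with alanines in place of CYC (NRPD1-3xF AAA-YPMF), and for wild type Col-0, each with 2 libraries. The other 5 samples were not used here.

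Pol IV is a plant RNA polymerase whose largest subunit is NRPD1. Its short transcripts are made double-stranded by RDR2, cut to 24 nt by DCL3 and used to guide DNA methylation, mostly at transposons and other repeats. The CLSY proteins are SNF2-type chromatin remodeler relatives that Pol IV needs at its target loci, CLSY1 and CLSY2 mainly in the chromosome arms and CLSY3 and CLSY4 mainly in heterochromatin around the centromeres. The CYC-YPMF motif of NRPD1 is the docking site in question, and the comparison asks whether its YPMF residues and the CLSY proteins account for the same siRNAs. The motif's protein sequence is not printed here.

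The sequences of the clusters where the genotypes stood furthest apart, or where most of the remaining 24 nt signal lay, are given first. Mature microRNAs are from the RefSeq annotation of TAIR10.1, with the seed, bases 2 to 8, in capitals. They are shown because microRNA genes, above all MIR163, hold most of the 24 nt signal that both genotypes kept. This signal is summed after division by cluster length. Only 24 nt reads were counted, so miR1887 and miR839-5p (21 nt) and miR848 (22 nt) are not themselves that signal. The 5 seeds differ from each other.
miR163 (chr1:24884359-24884382, plus strand): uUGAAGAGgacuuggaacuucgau
miR8121 (chr2:16588077-16588100, minus strand): aAAGUAUAaugguuuagugguuug
miR1887 (chr4:11370301-11370321, plus strand): uACUAAGUagagucuaagaga
miR848 (chr5:4479448-4479469, minus strand): uGACAUGGgacugccuaagcua
miR839-5p (chr1:25279138-25279158, minus strand): uACCAACCuuucaucguuccc

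The cluster merged_3_16157970, where the genotypes differed most, stands at the start of an inverted repeat. Its left arm spans chr3:16158264-16159953 and its right arm chr3:16159954-16161642, and the arms align with 90.55% identity over 1703 positions. The border between the arms was set at the midpoint of the aligned stretch, so a spacer was not measured. The left arm holds most of AT3G44570, annotated as a retrotransposon ORF-1 protein. The longest stretch that both arms share, 62 bases, is printed in capitals with 20 bases on either side, from the left arm and from the right arm read on the opposite strand.
left arm (chr3:16159124-16159225, plus strand): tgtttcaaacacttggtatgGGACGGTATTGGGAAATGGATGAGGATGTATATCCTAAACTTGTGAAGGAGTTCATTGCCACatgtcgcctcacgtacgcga
right arm (chr3:16160682-16160783, minus strand): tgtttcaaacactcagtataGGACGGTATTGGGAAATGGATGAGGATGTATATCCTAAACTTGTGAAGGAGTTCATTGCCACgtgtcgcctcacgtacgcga

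One cluster without an inverted repeat is shown for each direction, by its first 100 bases. The pericentromeric merged_4_3766781 kept more siRNAs in CYC-AAAA, and merged_3_15680917 kept more in clsy quad.
merged_4_3766781 (chr4:3766781-3766880, plus strand): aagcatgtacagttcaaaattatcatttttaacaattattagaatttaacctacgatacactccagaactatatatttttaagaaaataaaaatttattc
merged_3_15680917 (chr3:15680917-15681016, plus strand): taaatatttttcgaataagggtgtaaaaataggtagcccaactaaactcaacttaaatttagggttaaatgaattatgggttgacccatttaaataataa

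Levels are the RPKM values that the authors deposited, in which the reads of a cluster are divided by its length in kb and by the size of the library. A level is thus relative to the other reads of its library. A value above Col-0 in a genotype that lost nearly all siRNAs need not be a rise in amount. Cluster lengths were not used here, so the number of reads behind a value is unknown. At clusters with few reads, the most frequent ratio between libraries gave the library sizes relative to clsy quad replicate 1, which were 1.13 and 1.20 in the CYC-AAAA replicates and 1.27 in clsy quad replicate 2. The labels call the replicates biological, and p-values measure the spread between these 2 libraries of each genotype. In whole flowers, siRNAs in fewer cells and fewer siRNAs per cell cannot be told apart.

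Both genotypes had lost nearly all siRNAs, and CYC-AAAA kept slightly more than clsy quad over the genome. The mean of log2(RPKM + 1) over all clusters was 0.178 in both CYC-AAAA replicates and 0.119 and 0.148 in clsy quad, compared with 3.75 and 3.69 in Col-0. The replicates of nrpd1-3 had 0.103 and 0.120, and those of AAA-YPMF had 0.302 and 0.361. Thus the CYC-AAAA libraries did not overlap with clsy quad, and lay between clsy quad and AAA-YPMF. The share of clusters listed at 0 was 35.9% and 36.3% in CYC-AAAA and 53.9% and 43.6% in clsy quad. With 2 libraries against 2, the smallest p of a two-sided exact permutation test is 0.33, which the means gave.

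The gap was small at a typical cluster on the log2(RPKM + 1) scale, which compresses values far below 1 RPKM. As a share of Col-0, the median cluster kept 0.528% in CYC-AAAA and 0.132% in clsy quad. The median difference over clusters, CYC-AAAA minus clsy quad on the log2(RPKM + 1) scale, was 0.03, and the middle 50% of clusters lay between -0.01 and 0.11. The median difference was 6.42e-05 without CYC-AAAA replicate 1, 0.000512 without CYC-AAAA replicate 2 and 0.042 without clsy quad replicate 2. It was 0.02 with the libraries rescaled to their 21 nt reads and 0.19 with a pseudocount of 0.1, so that its size is not firm. Centring the libraries on their clusters of at least 1 RPKM gave -0.11. Centring also moves clusters listed at 0, so it cannot decide the direction. The library medians were 0.08 in both CYC-AAAA replicates and 0.00 and 0.04 in clsy quad (p = 0.33, two-sided exact permutation test). A CYC-AAAA library was above a clsy quad library at 45.4% to 49.8% of clusters and below it at 22.3% to 26.2%, over the 4 pairings of libraries. Between the CYC-AAAA replicates, these shares were 38.0% and 35.5%, and between the clsy quad replicates 26.5% and 39.0%.

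No cluster passed the test for a difference, with 0 of 12939 clusters called higher (0%) and 0 called lower (0%) in CYC-AAAA by limma. A call needed a 2-fold change, that is 1 on the log2 scale, together with an adjusted p below 0.01. The lowest adjusted p was 0.0302 (limma), at merged_3_16157970, the 1 cluster (0.00773%) that passed an adjusted p under 0.05. With other libraries in the fit to estimate the spread, a fit on 8 libraries called 1 higher (0.00773%), and a fit on all 12 called 13 higher (0.1%) and 2 lower (0.0155%). At an unadjusted p under 0.05, 1278 clusters (9.88%) were higher and 300 (2.32%) lower. The 95% interval of the fold change lay wholly within 2-fold at 12137 clusters (93.8%). This count depends on the pseudocount of 1, since most clusters were far below 1 RPKM in both genotypes, and with a pseudocount of 0.1 it was 3064. The interval lay wholly beyond 2-fold at 4 clusters higher in CYC-AAAA and at 1 lower.

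A look at whether the libraries overlapped, which needs no estimate of the spread, showed an uneven split. With 2 libraries of each genotype, some clusters separate in this way even where genotypes are alike. These counts are thus a description and do not list clusters that differ. Both CYC-AAAA libraries were above both clsy quad libraries at 3211 clusters (24.8%), and both were below at 931 (7.2%). At the remaining 8797 the libraries overlapped. Most of these gaps were small. The median gap was 0.125 RPKM at the 3211 clusters, of which 257 (8.00%) differed by at least 0.5 RPKM, and -0.185 RPKM at the 931, of which 115 (12.4%) did. When the 138 clusters whose 4 libraries averaged 1 RPKM or more were tested alone, limma called 12 higher (8.7%) and 3 lower (2.17%) in CYC-AAAA. These 15 calls rest on a spread estimated from those 138 clusters, and all 15 are among the clusters whose libraries did not overlap.

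**Figure D1:**
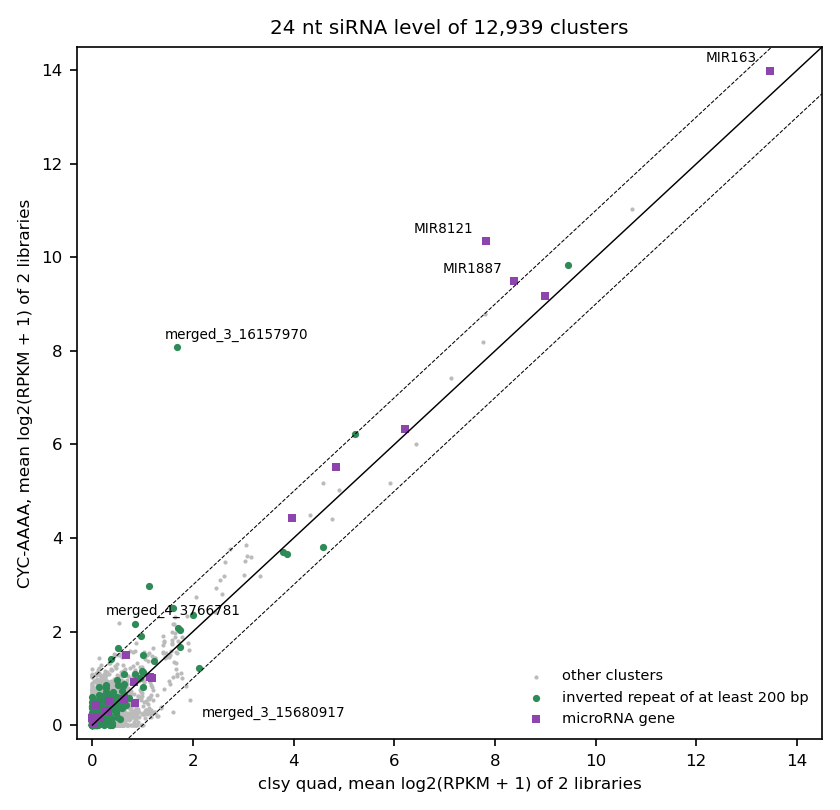
Mean 24 nt siRNA level of each of the 12939 clusters in clsy quad (x) and in NRPD1-3xF CYC-AAAA (y), both as log2(RPKM + 1) over 2 libraries. The solid line marks equal levels and the dashed lines a log2 difference of 1. Purple squares start within 100 bp of a microRNA gene and green points have an inverted repeat of at least 200 bp. Most clusters crowd near the origin, and merged_3_16157970 lies furthest from the line at 6.40 above it.

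The plot of one genotype against the other shows the few clusters with many reads along the line and merged_3_16157970 far above it. This cluster starts at position 16157970 of chromosome 3, 435 bp before AT3G44570 and 2.36 Mb from the centromere. Its level was 259.0 and 281.0 RPKM in the CYC-AAAA replicates and 2.21 RPKM in each clsy quad replicate. The log2 fold change was 6.40 (standard error 0.07, 95% interval 6.18 to 6.61, adjusted p = 0.0302 from limma). Plants without Pol IV also had it, with 226.7 and 268.7 RPKM in nrpd1-3, and AAA-YPMF had 198.8 and 204.3 RPKM. The intact transgene gave 112.5 and 112.2 RPKM, and Col-0 39.7 and 38.7 RPKM. In RPKM, all genotypes with nrpd1-3 were thus above Col-0, whether or not they had a transgene, and clsy quad alone was below it. Whether the difference comes from the CLSY alleles or from other differences between the plants was not tested.

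Gaps of this size were not seen at the other clusters in inverted repeats. Of the 20 clusters with an inverted repeat of at least 200 bp and an average of 1 RPKM or more, 13 were higher in both CYC-AAAA libraries and 3 lower. With the libraries rescaled to their 21 nt reads these counts were 9 and 5. Of the 85 clusters at 1 RPKM or more in each library of both genotypes, with or without a repeat, 49 were higher and 11 lower. Over all 305 clusters with such a repeat, 101 (33.1%) were higher and 24 (7.87%) lower, beside 24.8% and 7.2% of all clusters. The cluster merged_2_818861, in the long non-coding RNA gene AT2G04345, has arms that align over 2246 positions with 91.27% identity. It had 72.2 and 75.9 RPKM in CYC-AAAA and 36.0 and 36.5 RPKM in clsy quad, 2.04-fold apart, with 12.7 and 12.5 RPKM in Col-0. The clusters merged_5_1515100 and merged_5_1515953 lie on the arms of 1 repeat beside AT5G05130, annotated as a DNA/RNA helicase protein. The first had 6.18 and 7.64 RPKM in CYC-AAAA and 1.38 and 0.99 RPKM in clsy quad, and the second 3.84 and 3.15 RPKM against 1.10 and 0.56 RPKM. Both were also present in nrpd1-3, with 5.85 and 3.97 RPKM at the first.

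A few inverted repeats went the other way. The cluster merged_1_10982103, beside the long non-coding RNA gene AT1G06377, had 12.0 and 14.2 RPKM in CYC-AAAA and 23.2 and 22.9 RPKM in clsy quad, 1.76-fold more. The cluster merged_5_6630548 has the longest and most alike arms of the 20, 2252 positions with 99.91% identity, and had 1.38 and 1.31 RPKM in CYC-AAAA and 3.14 and 3.50 RPKM in clsy quad. In nrpd1-3 this cluster had 4.36 and 5.02 RPKM. At merged_3_11354299, whose arms align over 1288 positions, the libraries overlapped, with 11.2 and 13.0 RPKM in CYC-AAAA and 12.1 and 13.7 RPKM in clsy quad.

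Clusters at microRNA genes, above all MIR163, held most of the summed RPKM that was left in either genotype. The cluster with the highest level was merged_1_24884060, at MIR163, whose hairpin gives a 24 nt mature microRNA through DCL1. It had 16510 and 16188 RPKM in CYC-AAAA and 11616 and 10934 RPKM in clsy quad, and these 2 genotypes did not overlap. The log2 fold change was 0.54 (95% interval 0.37 to 0.70, adjusted p = 0.166 from limma). Col-0 had 4813 and 4956 RPKM, and the intact transgene 4301 and 4534 RPKM. Since RPKM are relative to the library, the higher values do not by themselves show a rise in amount. In the 4 libraries compared, this cluster alone took 62.5% to 67.4% of the RPKM summed over all clusters. The replicates of nrpd1-3 had 14422 and 16969 RPKM, and those of CYC-AAAA lay within that span.

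The largest gap at a microRNA gene was at MIR8121. The cluster merged_2_16588018 had 1134 and 1502 RPKM in CYC-AAAA and 210.8 and 239.2 RPKM in clsy quad, a log2 fold change of 2.53 (standard error 0.19, 95% interval 1.95 to 3.12, adjusted p = 0.106 from limma). The level was 649.1 and 717.8 RPKM in nrpd1-3, 407.9 and 528.4 RPKM in AAA-YPMF, and 87.1 and 91.7 RPKM in Col-0. Every CYC-AAAA value was thus above every value of the other genotypes. At MIR1887, merged_4_11370268 had 640.4 and 815.1 RPKM in CYC-AAAA and 341.1 and 326.5 RPKM in clsy quad, 2.18-fold apart. At MIR848, merged_5_4479376 had 600.5 and 555.8 RPKM against 508.6 and 510.8 RPKM, and at MIR839, merged_1_25278928 overlapped, with 73.8 and 85.5 RPKM against 64.4 and 82.5 RPKM.

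Of the 7 microRNA clusters with at least 10 RPKM in either genotype, 6 were higher in both CYC-AAAA libraries and 0 lower. The shares of all clusters, 24.8% and 7.2%, come mostly from clusters far below 1 RPKM and are not a like comparison. Of the 85 clusters at 1 RPKM or more in each library of both genotypes, 49 were higher and 11 lower. Over all 20 clusters at microRNA genes, 10 were higher and 1 lower, with a median log2 difference of 0.14 beside 0.03 over all clusters. With the libraries rescaled to their 21 nt reads, 5 of the 7 were higher and 0 lower, and 9 and 3 of the 20. A further pair of high clusters lay at other non-coding RNA genes. The cluster merged_4_13295908, in AT4G26255, had 1975 and 2221 RPKM in CYC-AAAA and 1634 and 1748 RPKM in clsy quad, and merged_1_24720965, in AT1G09805, had 879.4 and 964.0 RPKM against 658.8 and 741.0 RPKM.

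The sum over clusters follows these few loci. It was 7.07% and 7.25% of the Col-0 mean in CYC-AAAA and 4.83% and 4.79% in clsy quad (p = 0.33, two-sided exact permutation test). The 5 highest clusters of each library held 83.5% to 85.6% of its sum. Without merged_1_24884060, 2.62% was left in CYC-AAAA and 1.67% in clsy quad, and without the top 1% of clusters by mean level, 0.764% and 0.560%. The lists of clusters that reached 1 RPKM in both libraries overlapped in part. There were 143 such clusters in CYC-AAAA and 122 in clsy quad, and the 85 in common were 59.4% of the first list and 69.7% of the second. At 10 RPKM the lists had 29 and 24 clusters, and all 24 of clsy quad were among those of CYC-AAAA.

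The clusters that reached 1 RPKM in only one genotype differed in their level in wild type. These lists are a cut at 1 RPKM and not presence against absence. Of the 58 clusters at 1 RPKM or more in CYC-AAAA and not in clsy quad, 34 (58.6%) were pericentromeric, here taken as within 3 Mb of the centromere, near the 55.7% of all clusters, and their median level in Col-0 was 36.4 RPKM. Of the 37 clusters at 1 RPKM or more in clsy quad and not in CYC-AAAA, 11 (29.7%) were pericentromeric, and their median level in Col-0 was 522.9 RPKM. The median at the 58 clusters was 1.4 RPKM in CYC-AAAA and 0.4975 RPKM in clsy quad. At the 37 clusters it was 0.305 RPKM in CYC-AAAA and 1.305 RPKM in clsy quad. The cut itself favours clusters high in Col-0, so the Col-0 level of the second list is in part set by the choice. Of the 1293 clusters of the highest decile by Col-0 level, 399 were pericentromeric.

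**Figure D2:**
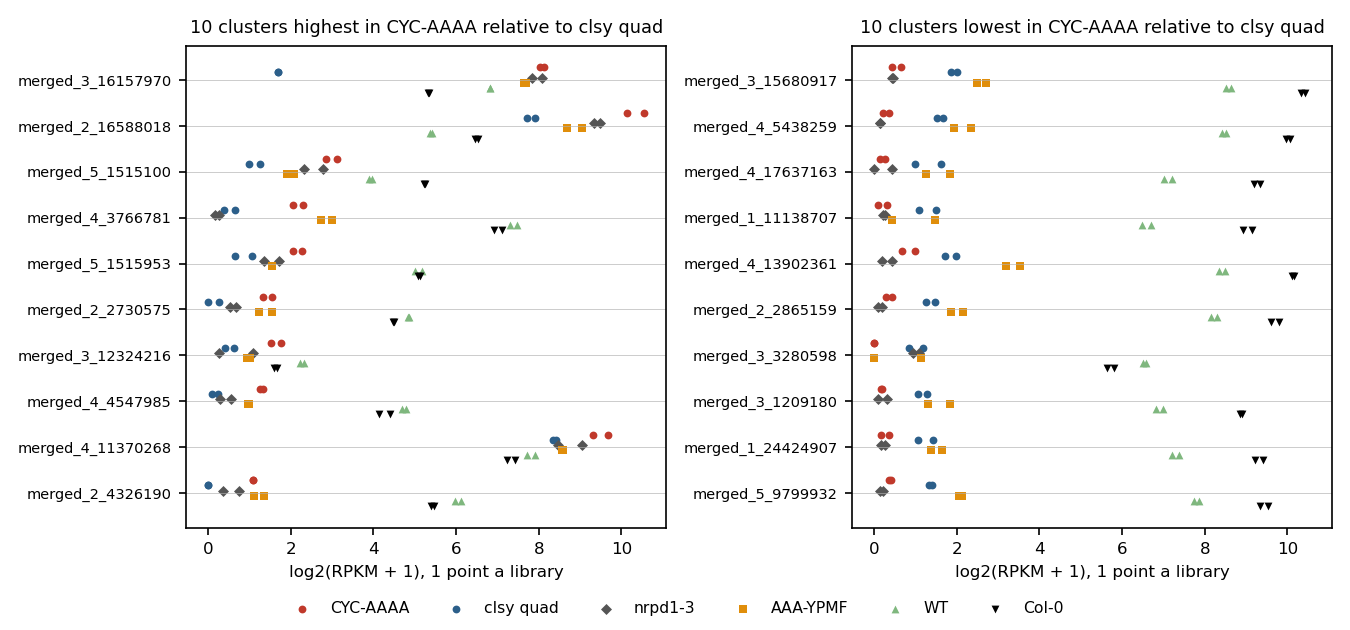
Level, as log2(RPKM + 1), of the 10 clusters with the largest log2 fold change in each direction among those with no overlap between the libraries and at least 1 RPKM in the higher genotype, with 1 point for each of the 12 libraries. At left, CYC-AAAA (red) lies above clsy quad (blue). At right, clsy quad lies above CYC-AAAA, AAA-YPMF (orange) above CYC-AAAA except for 1 library, and Col-0 (black) is above 8 on this scale at 9 of 10.

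Among the 10 clusters with the largest gap in favour of CYC-AAAA, 6 were pericentromeric, beside 55.7% of all clusters, and their median level in Col-0 was 38.1 RPKM. They were chosen for the gap from 128 clusters with at least 1 RPKM in CYC-AAAA and no overlap, so their values are a description. The cluster merged_4_3766781 starts 110 bp from YY1 (AT4G06634), which encodes a zinc finger transcription factor, and 0.190 Mb from the centromere. It had 3.15 and 3.93 RPKM in CYC-AAAA and 0.58 and 0.30 RPKM in clsy quad, a log2 fold change of 1.66 (95% interval 1.15 to 2.17, adjusted p = 0.163 from limma). In this case nrpd1-3 was near 0, with 0.13 and 0.21 RPKM, AAA-YPMF had 5.68 and 7.04 RPKM, and Col-0 had 137.4 and 120.7 RPKM. CYC-AAAA thus kept 2.74% of the Col-0 level and clsy quad 0.341%.

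Gaps in the same direction were seen at other pericentromeric clusters of chromosomes 2 and 4. The cluster merged_2_4326190, 1242 bp from AT2G10965, had 1.14 RPKM in both CYC-AAAA replicates and was listed at 0 in both clsy quad replicates, with 0.69 and 0.28 RPKM in nrpd1-3 and 43.5 and 41.1 RPKM in Col-0. The cluster merged_2_2730575, 1500 bp from the pseudogene AT2G06822, had 1.49 and 1.93 RPKM in CYC-AAAA and 0.00 and 0.19 RPKM in clsy quad. At merged_4_4547985, 157 bp from the pseudogene AT4G07747, the values were 1.37 and 1.49 RPKM against 0.06 and 0.18 RPKM. AAA-YPMF was above clsy quad in both libraries at 10 of the 10 clusters and nrpd1-3 at 8.

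The 10 clusters with the largest gap in favour of clsy quad had a median of 662.8 RPKM in Col-0, and 4 of the 10 were pericentromeric. They were chosen for the gap from 67 clusters with at least 1 RPKM in clsy quad and no overlap, so their values are a description too. That limit also favours clusters high in Col-0. The cluster merged_3_15680917, 94 bp from the long non-coding RNA gene AT3G06675, had 0.57 and 0.35 RPKM in CYC-AAAA and 3.00 and 2.64 RPKM in clsy quad, a log2 fold change of -1.39 (standard error 0.12, 95% interval -1.76 to -1.02, adjusted p = 0.128 from limma). It had 0.38 and 0.35 RPKM in nrpd1-3, 5.51 and 4.59 RPKM in AAA-YPMF, and 1380 and 1292 RPKM in Col-0. CYC-AAAA overlapped with nrpd1-3, and clsy quad stood between these and AAA-YPMF. Relative to Col-0, CYC-AAAA kept 0.0344% and clsy quad 0.211%.

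The other 9 clusters had gaps in the same direction. The cluster merged_4_5438259, in AT4G08545, annotated as an LRR receptor-like protein, had 0.28 and 0.16 RPKM in CYC-AAAA, 2.19 and 1.88 RPKM in clsy quad and 1070 and 997 RPKM in Col-0. The cluster merged_4_13902361 starts 361 bp from PYL10 (AT4G27920), an abscisic acid receptor gene, and had 0.98 and 0.60 RPKM against 2.95 and 2.30 RPKM. At merged_1_11138707, 792 bp from MIR167D (AT1G31173), whose family targets auxin response factors, the values were 0.24 and 0.06 RPKM against 1.81 and 1.12 RPKM. Likewise, merged_4_17637163 beside the peroxidase gene AT4G37530, merged_2_2865159 beside the pseudogene AT2G06950, merged_3_1209180 in the exportin gene AT3G04490, merged_1_24424907 beside the cytochrome P450 gene CYP702A1 and merged_5_9799932 beside the helicase gene RECQSIM had at most 0.35 RPKM in each CYC-AAAA library and at least 1.00 RPKM in each clsy quad library. An exception in its Col-0 level was merged_3_3280598, beside the cell cycle regulator gene LGO, with 0.00 RPKM in both CYC-AAAA replicates, 0.78 and 1.26 RPKM in clsy quad and a Col-0 mean of 51.7 RPKM. The nrpd1-3 libraries were below both clsy quad libraries at 9 of the 10 clusters.

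The level that the intact transgene restored also differed at these clusters. NRPD1-3xF WT was below Col-0 in both libraries at 9 of the 10 clusters in favour of clsy quad, and at 2 of the 10 in favour of CYC-AAAA. At merged_3_15680917, for example, it had 395.3 and 365.5 RPKM, beside 1380 and 1292 RPKM in Col-0. Over all clusters, NRPD1-3xF WT lay below Col-0 without overlap at 18.5%, but at 47.4% of the 931 clusters where CYC-AAAA was below clsy quad, and at 10.4% of the 3211 where it was above. None of these 4 wild type and intact-transgene libraries entered the choice of the clusters directly. For the 10 clusters in favour of clsy quad, however, the limit of 1 RPKM favours clusters high in Col-0. In the highest decile by Col-0 level, NRPD1-3xF WT was below Col-0 at 56.6% of clusters, so the choice was not independent of this comparison.

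**Figure D3:**
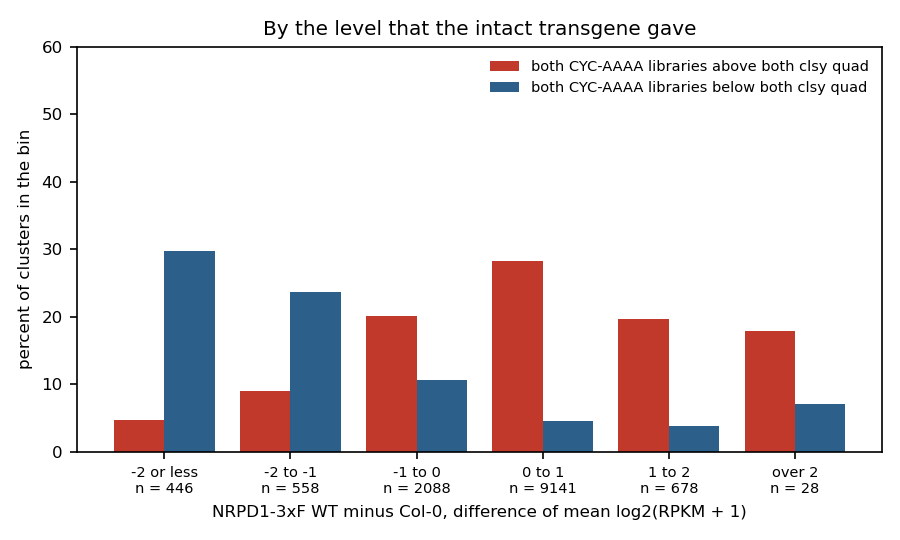
Percent of clusters with both CYC-AAAA libraries above (red) or below (blue) both clsy quad libraries, in bins of the difference between NRPD1-3xF WT and Col-0 in mean log2(RPKM + 1), with the number of clusters under each bin. Blue exceeds red in the lowest pair of bins, where the intact transgene was at least 1 log2 unit below Col-0, and red exceeds blue in the others.

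In bins of that difference, the split turned over. At the 446 clusters where NRPD1-3xF WT was at least 2 log2 units below Col-0, CYC-AAAA was above clsy quad at 4.71% and below at 29.8%. At the 558 clusters between 1 and 2 units below, these shares were 8.96% and 23.7%. At the 9141 clusters where NRPD1-3xF WT was up to 1 unit above Col-0, they were 28.2% and 4.55%. The Col-0 level differed between the bins too, with a median of 46.7 RPKM in the lowest and 8.83 RPKM in the largest. Within the highest decile of clusters by Col-0 level, CYC-AAAA was below clsy quad at 36.9% of the 732 clusters where NRPD1-3xF WT was below Col-0 and at 16.0% of the other 561. It was above at 5.87% and 21.4%. The part of the tagged transgene itself in the lower level of CYC-AAAA at these clusters was not tested.

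**Figure D4:**
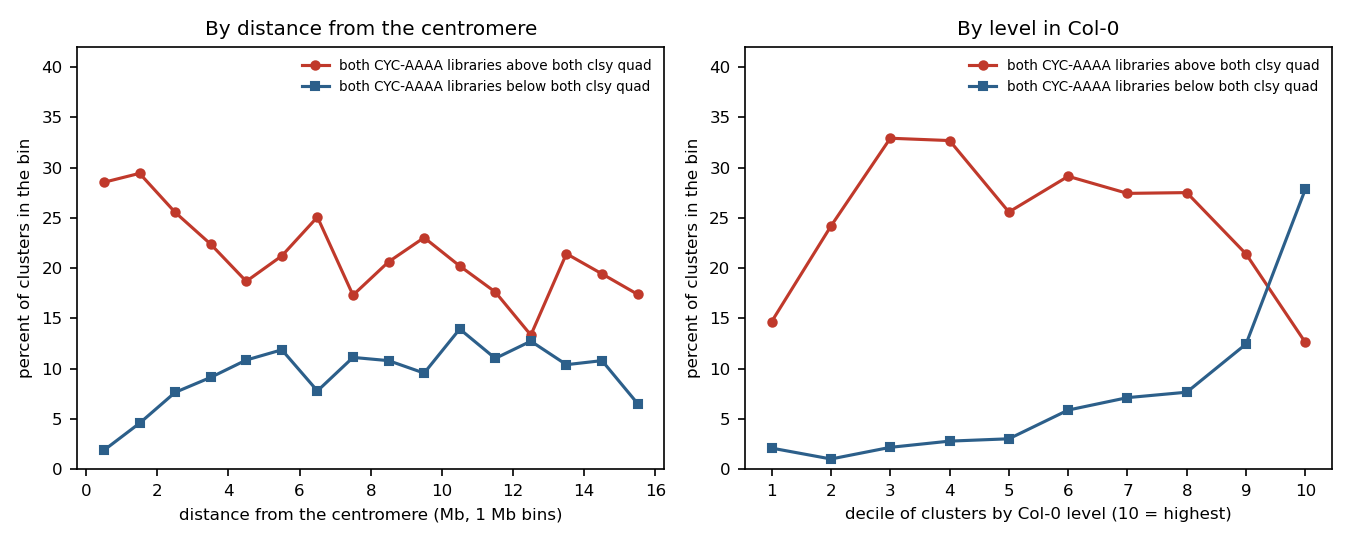
Percent of clusters with both CYC-AAAA libraries above (red) or below (blue) both clsy quad libraries, by distance from the centromere in 1 Mb bins (left) and by decile of the clusters ranked by their mean in Col-0 (right). Red is highest at 1 to 2 Mb from the centromere, at 29.4%, and blue is lowest within 1 Mb, at 1.88%. On the right the lines cross in the highest decile.

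By position, the excess of CYC-AAAA was larger around the centromeres. Of the 7205 pericentromeric clusters, 2014 (28.0%) were above and 337 (4.68%) below, and of the 5697 arm clusters, 1188 (20.9%) were above and 587 (10.3%) below. The mean log2(RPKM + 1) of pericentromeric clusters was 0.143 and 0.147 in CYC-AAAA and 0.077 and 0.096 in clsy quad, with no overlap. In the arms it was 0.221 and 0.216 in CYC-AAAA and 0.170 and 0.213 in clsy quad, so that clsy quad replicate 2 came close to CYC-AAAA. The pericentromeric mean was below the arm mean by 0.08 and 0.07 in CYC-AAAA and by 0.09 and 0.12 in clsy quad, which did not overlap (p = 0.33, the smallest possible in a two-sided exact permutation test). On each of the 5 chromosomes, the share of clusters above was larger around the centromere, from 25.4% to 31.7%, than in the arms, from 18.8% to 23.4%. Within 1 Mb of the centromere, 28.5% of 2239 clusters were above and 1.88% below. Clusters there were low in Col-0, with a median of 3.1 RPKM, beside 6.03 RPKM in all pericentromeric and 20.7 RPKM in arm clusters. Deciles 2 and 3 by Col-0 level, with medians of 2.66 and 4.2 RPKM, had 24.2% and 32.9% above and 1.00% and 2.16% below. Level and position were thus not told apart there. In each decile, the share above was larger around the centromere than in the arms. The share below was smaller except in deciles 6 and 9.

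By level in Col-0, the direction turned over at the top. In the first 9 deciles, the share of clusters above ranged from 14.7% to 32.9% and that below from 1.00% to 12.4%. In the highest decile, 12.6% were above and 27.8% below, with a median log2 difference of -0.09. This crossing held in both regions, since 25.6% of the pericentromeric and 28.9% of the arm clusters of the highest decile were below. The mean of log2(RPKM + 1) over the highest decile was 0.362 and 0.33 in CYC-AAAA and 0.364 and 0.497 in clsy quad. The size of the gap thus depended on the clsy quad library. Both CYC-AAAA libraries were below clsy quad replicate 1 at 35.9% of the clusters of this decile and above it at 28.3%, and below replicate 2 at 55.7% and above it at 15.9%.

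**Figure D5:**
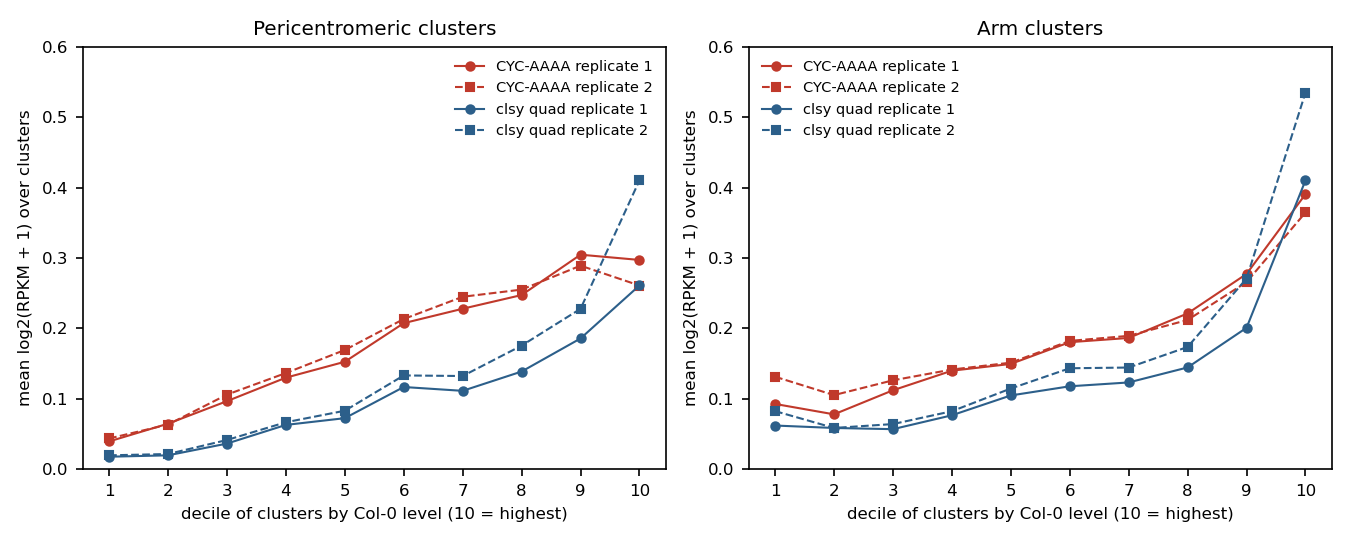
Mean log2(RPKM + 1) over clusters in each decile by Col-0 level, for pericentromeric clusters (left) and arm clusters (right), with 1 line for each of the 4 libraries. Around the centromere both CYC-AAAA libraries (red) lie above both clsy quad libraries (blue) up to the ninth decile, and clsy quad replicate 2 is highest in the last, at 0.410.

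In the plot of levels by decile, the pericentromeric CYC-AAAA values rose from 0.039 and 0.043 in the lowest decile to 0.305 and 0.289 in the ninth, and those of clsy quad from 0.018 and 0.020 to 0.186 and 0.228. In the highest decile they were 0.297 and 0.261 in CYC-AAAA and 0.261 and 0.410 in clsy quad. As a share of Col-0, little was left at the median cluster of this decile, 0.122% and 0.0933% in CYC-AAAA and 0.126% and 0.230% in clsy quad. Pericentromeric clusters of all levels together summed to 1.00% and 1.06% of Col-0 in CYC-AAAA and to 0.441% and 0.533% in clsy quad.

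The sequence and annotation of the clusters on either side were also compared. The median G+C content of the first 500 bases was 33.8% where CYC-AAAA was above, 30.4% where it was below and 32.4% over all clusters. Of the 1819 clusters at annotated pseudogenes, many of them remnants of transposons, 504 (27.7%) were above and 32 (1.76%) below, beside 24.8% and 7.2% of all clusters. Of the 1830 at protein-coding genes, 448 (24.5%) were above and 182 (9.95%) below. Of the 8829 with no gene within 100 bp, 2119 were above and 671 (7.60%) below. The median level in Col-0 was 2.9 RPKM at pseudogenes, 16.5 RPKM at protein-coding genes and 13.8 RPKM with no gene. Deciles 2 and 3 by Col-0 level, with medians of 2.66 and 4.2 RPKM, had 24.2% and 32.9% above and 1.00% and 2.16% below. Whether pseudogenes differ from other clusters of like level was not tested. Of the 37 clusters on the mitochondrial genome, 9 were above and 7 below, and their mean log2(RPKM + 1) was 0.314 and 0.342 in CYC-AAAA and 0.334 and 0.307 in clsy quad.

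A list of 21 genes of the pathway, known targets, TAS genes and MIR163 was looked up next. Of these, 11 had a cluster inside or within 2 kb, 13 clusters in all, of which 6 were higher in both CYC-AAAA libraries, 0 lower and 0 called by limma, beside 24.8% higher and 7.2% lower of all clusters. The 6 include merged_1_24884060 at MIR163, and the other 12 clusters had at most 3.07 RPKM in each of the 4 libraries. Near SDC, an F-box gene silenced by RNA-directed DNA methylation, lies merged_2_7680791, which starts closer to AT2G17680, at 413 bp. It had 0.67 and 0.78 RPKM in CYC-AAAA and 0.07 and 0.08 RPKM in clsy quad, with 20.9 and 18.3 RPKM in Col-0. At FWA, a homeodomain gene silenced in the same way, merged_4_13038163 had 0.16 and 0.15 RPKM in CYC-AAAA and was listed at 0 in both clsy quad replicates. At CLSY1, merged_3_14761494 had 0.35 and 0.42 RPKM against 0.24 and 0.29 RPKM, and at RDR2, merged_4_6784693 had 0.08 RPKM in both CYC-AAAA replicates and was listed at 0 in clsy quad.

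At the other pathway genes with a cluster the libraries overlapped, and near TAS1B 1 of 2 clusters was higher in CYC-AAAA. The clusters at NRPD2 (merged_3_8574464), CLSY3 (merged_1_1617532), CLSY4 (merged_3_8835922) and DCL3 (merged_3_15752744) had at most 0.28 RPKM in each of the 4 libraries. The one near DCL3 starts 55 bp from AT3G43910. At NRPE1, the largest subunit of Pol V, merged_2_16714017 had 1.08 RPKM in CYC-AAAA replicate 1 and was listed at 0 in the other 3 libraries. The 2 clusters within 2 kb of TAS1B, a source of trans-acting siRNAs, start in the neighbouring genes AT1G50050 and AT1G50060. In AT1G50050, merged_1_18547947 had 3.07 and 2.91 RPKM in CYC-AAAA and 2.15 and 1.88 RPKM in clsy quad. In AT1G50060, merged_1_18551545 had 1.00 RPKM in CYC-AAAA replicate 1 and was listed at 0 in the other 3 libraries. The second cluster within 2 kb of MIR163, merged_1_24885001, starts in LIG6 (AT1G66730). It had 0.16 RPKM in clsy quad replicate 1 and was listed at 0 in the other 3.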

How the data were processed

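Small RNA libraries were made from flower RNA with adapters that hold a unique molecular identifier; whether it was used to collapse reads is not given in the sources used here. The authors used cutadapt for trimming and ShortStack for mapping to TAIR10, kept perfect matches and those with 1 mismatch at the 3′ end, and deposited the 24 nt reads over fixed clusters as RPKM from HOMER 4.10, scaled to the filtered reads. All 12 columns were matched to samples by name, leaving 0 unused. Each cluster is known by its start only.

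RPKM values were taken to log2(RPKM + 1) and tested by limma 3.58.1 (R 4.3.3; lmFit, and eBayes with a mean-variance trend) on the 4 libraries, with Benjamini-Hochberg adjustment over 12939 clusters. The study's own limits were kept, and its count model was not used because RPKM are not counts. Fold changes on this scale understate those of low clusters.

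Genes and distances are from RefSeq TAIR10.1, whose nuclear chromosomes match TAIR10. A cluster was assigned to a gene within 100 bp. Centromeres are the assembly gaps. Inverted repeats were words of 25 bases whose reverse complement occurred from 2 kb before to 4 kb after the start, and arms were aligned with BLAST 2.17.0 from 4 kb before to 8 kb after.

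Clusters were named if they had 1 of the 10 largest differences in either direction without overlap and at least 1 RPKM in the higher genotype, 1 of the 5 highest levels of a genotype, a call in any fit (up to 10 in each direction), or a start within 2 kb of a listed gene. Inverted repeats and the microRNA clusters of at least 10 RPKM were added after their values were seen, as was the comparison of the intact transgene with Col-0. The members and lists were chosen with earlier results of these data known. Python 3.11.15 and matplotlib 3.10.9 were used.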

Additional observations from a re-analysis of the deposited data

How the results depend on the processing

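Where the main fit called 0 clusters in either direction, a fit on all 12 libraries called 13 higher and 2 lower in CYC-AAAA, a fit on 8 libraries 1 higher, clusters that averaged 1 RPKM or more 12 and 3 of 138, rescaling to the 21 nt reads 1 higher, and an adjusted p under 0.05 1 higher (limma). Centring on the median of clusters of at least 1 RPKM gave 6 higher and 21 lower, and turned the median difference over clusters to -0.11; it moves clusters at 0 as well. That median was 0.29 over clusters of at least 1 RPKM and 0.19 with a pseudocount of 0.1. The interval lay inside 2-fold at 93 of the 138 clusters and, with a pseudocount of 0.1, at 3064 of 12939. At the median cluster, instead of the sum, 0.528% of Col-0 was left in CYC-AAAA and 0.132% in clsy quad; without the highest 1% of clusters the sums were 0.764% and 0.560%, and without merged_1_24884060, chosen after seeing the data, 2.62% and 1.67%. The factors for the 21 nt scale were 0.962 and 0.899 in CYC-AAAA and 1.10 and 1.05 in clsy quad. With that scale, also added for this count after seeing the data, 2964 clusters were above and 1246 below, with the median of clusters of at least 1 RPKM as the scale 3014 and 1204, and with the reads other than 24 nt 3681 and 931.

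With each library left out, 0 clusters were called in either direction, the median difference ranged from 6.42e-05 to 0.04, the number of intervals inside 2-fold from 10404 to 10494, the sum from 7.07% to 7.25% of Col-0 in CYC-AAAA and from 4.79% to 4.83% in clsy quad, and the median difference from 0.0143 to 0.042 around the centromere and from 0.00 to 0.05 in the arms. With the replicate number as a block, 0 clusters were called and 11727 intervals lay inside 2-fold. The replicate numbers did not pair the libraries, since the correlation of the replicates' deviations was -0.003 over all clusters and 0.05 over the 138. Of the 27 clusters named for their difference or a call, none turned its direction in a fit that tested it, but merged_3_22583227 had a log2 fold change of 0.00 without CYC-AAAA replicate 2 and merged_5_9237459 had 0.00 without clsy quad replicate 2, since each rests on 1 library. In the main fit, 2 libraries a genotype and unknown read numbers limit the precision, so the lack of calls does not show that the genotypes are alike.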
